A study of Mus musculus with 6 samples.

Results

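The enzymes described here write and remove methyl groups on histones and DNA, or remove acetyl groups from histones. They were taken by name, as every gene whose symbol is Hdac, Sirt, Kdm, Kmt, Dnmt, Tet, Prmt or Ezh followed by a number and at most 1 letter. This gave 61 genes, each with 1 row, of the 25206 rows measured. The rule uses names and no measured value, although this family of genes was picked with earlier results of these data known. Expression was profiled on single-colour arrays in cultured mouse group 2 innate lymphoid cells (ILC2s), lymphocytes without antigen receptors that make type 2 cytokines. The knockout group (genotype CBFBeta knock out) carried CRISPR guides against Cbfb, and the control group (genotype Non-target Control) guides without a target. Both groups were C57BL/6J ILC2 line cells kept in 10 ng/ml IL-2 and IL-33, both carried the LentiV2CRISPRGFP construct, and in both the GFP-positive cells were sorted at 6 days. Each group had 3 arrays. The labels do not give the number of guides, mice or separate cultures behind the 3 samples of a group. The p-values therefore weigh the difference between the groups against the scatter within them, and that scatter may be technical. The sorted cells were analysed in bulk and were not selected for the edit.

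Histone methyltransferases and demethylases set marks that open or silence chromatin, histone deacetylases remove acetyl marks as part of corepressor complexes, and DNA methyltransferases and TET dioxygenases add methyl groups to cytosine and oxidise them. CBFβ is the partner that stabilises RUNX transcription factors on DNA, and RUNX proteins are known to recruit both corepressors and activating chromatin complexes. In lymphocytes these enzymes are known for fixing lineage choice and cytokine gene activity.

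Values are log2 expression, and since each gene has its own probes, its level is used only to tell rows above the median row from those under it and to pick which genes are named. Cbfb itself read 7.88, 7.69 and 7.91 in knockout arrays and 8.53, 8.73 and 8.70 in control arrays, a change of -0.83 (limma adjusted p = 0.00205). The ILC2 and lymphoid marker genes Gata3 (10.68 and 10.58 in knockout and control), Klrg1 (11.36 and 11.37) and Ptprc (10.77 and 10.69) were read high. So were Il13 (12.04 and 12.25) and Il2ra (11.7 and 11.93), each with all knockout arrays below all control arrays, though neither passed. Over the whole marker list, groups separated in this direction in 6 genes and in the other direction in 2. Thy1 was read at 3.41 in both groups, under the median row of 3.6. Of 11 measured ILC2 and lymphoid markers 4 fell, namely the costimulatory receptor gene Icos (-0.78), the IL-7 receptor gene Il7r (-0.56), the transcription regulator gene Id2 (-0.35) and the cytokine gene Il5 (-0.33). Rora, which encodes a nuclear receptor needed for ILC2 development, rose by 2.22 on the log2 scale, with a mean of 5.53 in the knockout and of 3.32 in the control, the second under the median row. The summed linear level of the 11 was 18120 to 18780 in knockout and 20910 to 21230 in control arrays. In such bulk samples fewer cells of a type and less RNA per cell cannot be told apart. Of 7 T cell markers 5, of 4 B cell markers 4, of 6 myeloid markers 3, of 5 mast cell markers 5 and of 5 NK cell markers 3 had both means under that median. Summed on a linear scale, the T cell list lay at 92.9 to 100.1 in knockout and 95.8 to 108.6 in control arrays, and the myeloid list at 100.5 to 134.3 in knockout and 115.6 to 142.6 in control arrays. The NK list lay at 2077 to 2356 in knockout and 2295 to 2688 in control arrays, with the granzyme gene Gzma at 10.94 in the knockout and 11.11 in the control. Of these 27 markers the perforin gene Prf1, which ILC2s can share with NK cells, was the 1 that changed (-0.49, limma adjusted p = 0.0154). Their part in the results was not tested.

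Across the 61 enzymes, 14 passed the test, 23% against a background of 9.75% of all rows (limma, Benjamini-Hochberg adjusted p under 0.05 over all rows). Of these, 11 were higher in the knockout, against 5.51% of all rows, and 3 were lower, against 4.24%. Of the 61 enzymes 56 lie above the median level, where changes are called more often. Among the 12601 rows above the median level 18.1% passed, and 14 of these 56 enzymes did, or 25%. By direction, 10.3% of those rows were higher and 7.75% lower, against 11 and 3 of the 56 enzymes. The genes that rose were Hdac10, Kdm5d, Prmt9, Ezh2, Kmt5c, Kmt2a, Kdm7a, Hdac7, Kmt2c, Kmt2b and Kmt2e, and those that fell were Kdm6b, Kdm4d and Tet2. The changes were modest, between -0.70 and 0.72 on the log2 scale, with an estimate above 0 in 45 of the 61 enzymes, a count that was the same after quantile normalisation again and after centring each array. Their median was 0.13, against -0.0067 over all rows. Knockout and control arrays were fully separated in 33 enzymes, 26 of them higher and 7 lower in the knockout, where 27.5% of all rows and 43.8% of rows above the median level had no overlap. Without knockout replicate 2 the number of rises was 4, without knockout replicate 3 it was 3, and without control replicate 2 or control replicate 3 it was 4. Ezh2, Hdac10, Kdm6b and Kdm4d were the 4 genes that passed in the main fit, and in all 13 alternatives, 6 of which drop a single array.

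**Figure D1:**
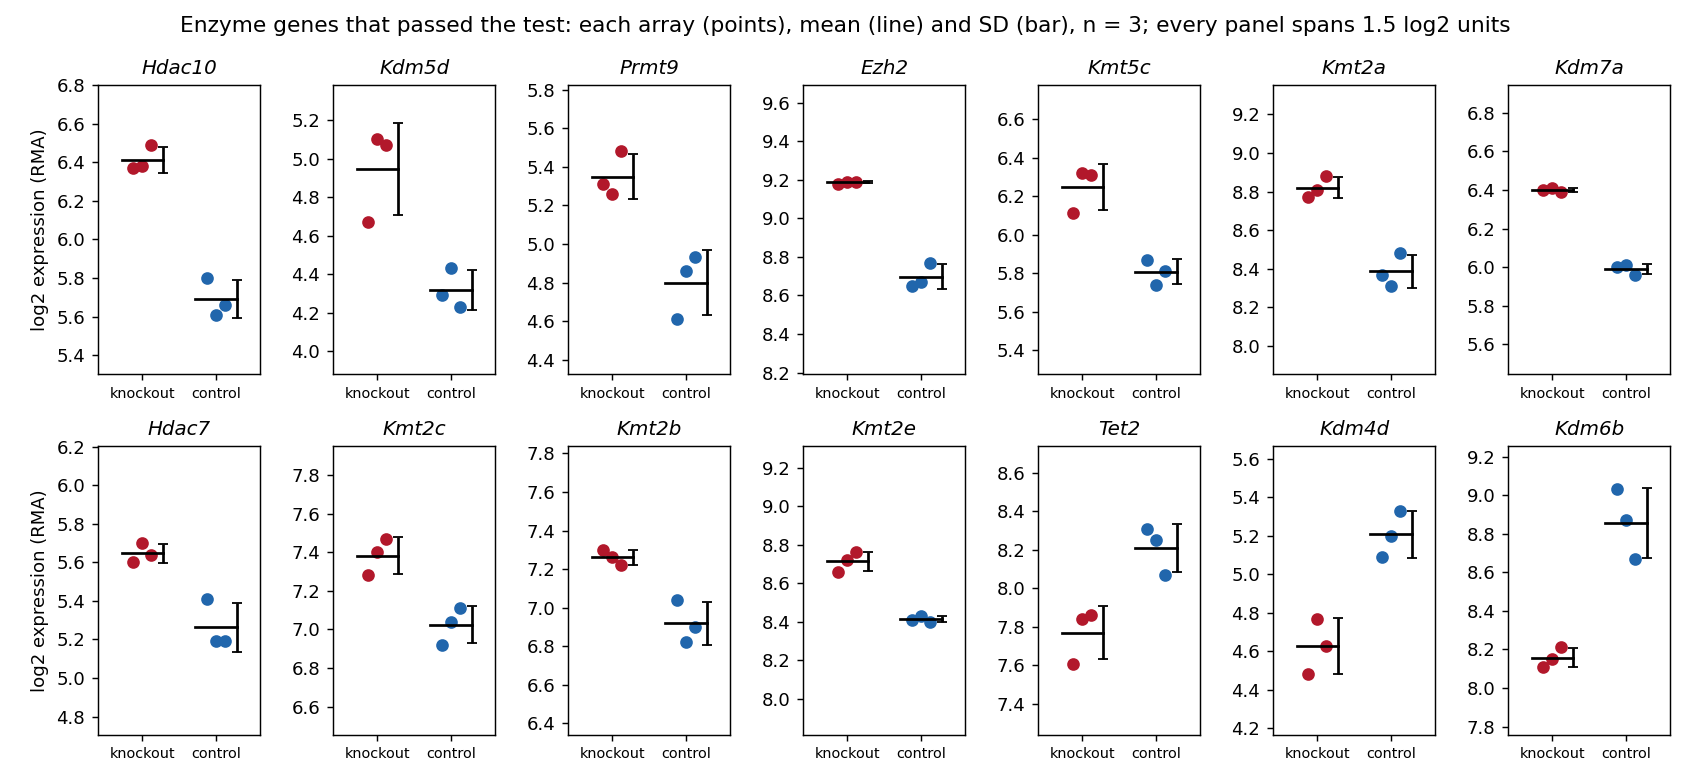
Log2 expression of the 14 enzyme genes that passed the test, in 3 knockout arrays (red, left) and 3 control arrays (blue, right), with group means and SDs. Each panel spans the same number of log2 units on its own offset. No gene has overlapping groups, as is likely for genes picked by a test on these same arrays. The 3 lower in knockout are Tet2, Kdm4d and Kdm6b.

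The promoters of the enzymes were searched for the core RUNX motif, since CBFβ acts through RUNX proteins. Of the RUNX genes measured, Runx1 rose by 1.28 on the log2 scale (limma adjusted p = 0.00122). Runx3 differed by 0.24 and did not pass (limma adjusted p = 0.198). Windows of 300 bases, 250 before to 50 after a transcription start, came from RefSeq on GRCm38.p6, where 51 of the 61 enzymes had 73 windows. The motif was TGTGGT, or ACCACA on the opposite strand. It stood in 10 of the 73 windows, or 13.7%, and in 16.8% of all 32851 windows. Among the 10 genes that passed and had a window, Ezh2 was the 1 with the motif. The windows printed here belong to the 3 such genes with the smallest adjusted p, Ezh2 and Kdm7a, which rose, and Kdm4d, which fell. They are written 5′ to 3′ on the strand of the gene, the minus strand in each case, with the motif in capitals.
Ezh2, chr6:47594981-47595280: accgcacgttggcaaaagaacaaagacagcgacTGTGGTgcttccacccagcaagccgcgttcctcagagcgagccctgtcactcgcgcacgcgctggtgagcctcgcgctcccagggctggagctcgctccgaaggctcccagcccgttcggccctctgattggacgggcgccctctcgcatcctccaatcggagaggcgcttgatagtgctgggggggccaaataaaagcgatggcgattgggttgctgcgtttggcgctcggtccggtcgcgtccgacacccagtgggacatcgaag
Kdm7a, chr6:39206724-39207023: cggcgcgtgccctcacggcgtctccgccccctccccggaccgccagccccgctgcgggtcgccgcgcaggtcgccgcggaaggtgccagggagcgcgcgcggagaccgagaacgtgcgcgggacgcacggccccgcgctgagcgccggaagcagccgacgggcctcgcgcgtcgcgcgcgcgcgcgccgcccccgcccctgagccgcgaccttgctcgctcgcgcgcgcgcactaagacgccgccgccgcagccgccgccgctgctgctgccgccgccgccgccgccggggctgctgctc
Kdm4d, chr9:14500433-14500732: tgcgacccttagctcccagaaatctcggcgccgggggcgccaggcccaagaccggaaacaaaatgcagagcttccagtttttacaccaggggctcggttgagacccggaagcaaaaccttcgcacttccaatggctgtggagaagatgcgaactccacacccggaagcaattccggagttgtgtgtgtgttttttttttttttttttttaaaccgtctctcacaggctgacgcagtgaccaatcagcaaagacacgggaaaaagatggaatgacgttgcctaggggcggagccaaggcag

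The Ezh2 motif began at -217 from the start and read along the strand of the gene. The Kdm7a window held 65 CG dinucleotides, the Ezh2 window 31 and the Kdm4d window 17, against a median of 7 over all windows. No match in the Kdm7a and Kdm4d windows says only that these letters are not there.

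Histone lysine methyltransferases were the class with the most rises. Of 10 members 6 rose (60%), none fell and 4 did not pass, with a class median of 0.33. Over all rows 5.51% rose, and 10.3% of those above the median level did. The KMT2 family places methyl groups on H3K4, a mark of active promoters and enhancers, and knockout and control arrays were fully separated in all 5 members. Such separation was seen in 27.5% of all rows and in 43.8% of rows above the median level. Kmt2a, the MLL1 enzyme (Entrez gene 214162), read 8.77, 8.81 and 8.88 in knockout arrays and 8.37, 8.31 and 8.48 in control arrays. Every knockout array lay above every control array, and the gene rose 1.35-fold (95% interval 1.18 to 1.55, limma adjusted p = 0.0168). Kmt2b, its closest relative, read 7.30, 7.26 and 7.22 in the knockout and 7.04, 6.82 and 6.90 in the control (limma adjusted p = 0.0494). Kmt2c, which primes enhancers, read 7.28, 7.40 and 7.47 in the knockout and 6.92, 7.04 and 7.11 in the control (limma adjusted p = 0.0474). Both lay just inside the threshold, Kmt2b with a change of 0.34 and Kmt2c with 0.36. Kmt2e, a relative without known methyltransferase activity, read 8.66, 8.72 and 8.76 in the knockout and 8.41, 8.43 and 8.40 in the control, a change of 0.30 (limma adjusted p = 0.0478). Kmt2d, the partner paralog of Kmt2c at enhancers, averaged 8.03 ± 0.095 in the knockout and 7.72 ± 0.11 in the control (SD, n = 3) and did not pass (change 0.31, limma adjusted p = 0.0831). Kmt2a passed in 3 of the 6 leave-one-out fits, Kmt2b in 1, and Kmt2c and Kmt2e in 0.

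Ezh2 encodes the catalytic subunit of Polycomb repressive complex 2 (PRC2), which methylates H3K27 to silence genes. Ezh2 (Entrez gene 14056) read 9.18, 9.19 and 9.19 in knockout arrays and 8.65, 8.67 and 8.77 in control arrays. The knockout arrays lay close together and above all control arrays. The rise was 1.40-fold (95% interval 1.24 to 1.59, limma adjusted p = 0.00745). Its paralog Ezh1, the PRC2 enzyme of resting cells, averaged 7.71 ± 0.075 in the knockout and 7.55 ± 0.026 in the control (change 0.16, limma adjusted p = 0.284). The difference between the changes of Ezh2 and Ezh1 was not tested. None of 10 PRC2 partner genes passed in limma, with 3 at an unadjusted p under 0.05, or 30%, against 22.9% of all rows and 37.2% of rows above the median level. Among them the core subunit genes Eed (-0.19) and Suz12 (-0.18) had estimates below 0, and Jarid2, which helps to guide the complex, had 0.29 (limma adjusted p = 0.0944). Replication genes, read beside Ezh2 because its expression is known to follow the cell cycle, had a list median of -0.23. Of 20, 3 were lower and none higher (15% called, against 9.75% of all rows and 18.1% of those above the median level). They were Chaf1b (-0.44), Rrm2 (-0.47) and Tyms (-0.31). Estimates lay below 0 in 18 of the 20 and above 0 in 2. In 13 the unadjusted p was under 0.05 (65%, against 22.9% of all rows and 37.2% of rows above the median level). Groups did not overlap in 15 with lower and 1 with higher knockout arrays. In either direction 27.5% of all rows and 43.8% of those above the median level had no overlap.

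The KMT5 enzymes methylate H4K20. Kmt5c, which makes the heterochromatic trimethyl form (Entrez gene 232811), read 6.11, 6.32 and 6.31 in knockout arrays and 5.87, 5.74 and 5.81 in control arrays. The groups did not overlap, and it rose 1.36-fold (limma adjusted p = 0.0215). It passed in 2 of the 6 leave-one-out fits. Kmt5b, with a related activity, differed by -0.077 (limma adjusted p = 0.682). Kmt5a, the monomethylating enzyme needed in dividing cells, read 10.78 ± 0.05 and 10.83 ± 0.18 in knockout and control (SD, n = 3; 95% interval of the fold 0.816 to 1.14).

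Histone methyltransferases with other names were added for comparison. Of 24 measured 7 rose and 1 fell (33.3%, against 9.75% of all rows and 18.1% of those above the median level, median 0.13). The 4 with the smallest adjusted p were Setd1b, an H3K4 enzyme (change 0.64, limma adjusted p = 0.00478), the H3K9 enzymes Ehmt1 (0.50), Setdb1 (0.39) and Ehmt2 (0.39). Dot1l, the H3K79 enzyme, fell by 0.38 on the log2 scale (limma adjusted p = 0.0385). Genes for core or complex-specific partners of KMT2 and SET1 enzymes all lay above the median level. Of 10, 1 passed (10%, against 9.75% of all rows and 18.1% of those above the median level). It was Men1, the menin adaptor that binds the KMT2A protein, which rose (limma adjusted p = 0.0042). Its means were 7.52 ± 0.096 in the knockout and 6.91 ± 0.045 in the control (SD, n = 3). The other 9, Wdr5 (-0.20) and Ash2l (0.087) included, did not pass.

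Of 18 histone lysine demethylases 2 rose, 2 fell and 14 did not pass. All 18 lie above the median level, and their share of calls, 22.2%, is near the 18.1% of rows there. The class had 16 estimates above 0 and a median of 0.17. Kdm6b, the JMJD3 enzyme that removes the H3K27 mark set by PRC2 and is induced by inflammatory signals (Entrez gene 216850), read 8.11, 8.15 and 8.21 in knockout arrays and 9.03, 8.87 and 8.67 in control arrays. All knockout arrays lay below all control arrays. The knockout level was 0.616 times the control level on a linear scale (95% interval 0.52 to 0.729, limma adjusted p = 0.00587). Its paralog Kdm6a, the X-linked H3K27 demethylase UTX, averaged 7.44 ± 0.13 in the knockout and 7.36 ± 0.095 in the control (SD, n = 3) and did not pass (limma adjusted p = 0.714). Whether the changes of Kdm6b and Kdm6a differ was not tested.

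Kdm4d, an H3K9 demethylase best known from testis (Entrez gene 244694), read 4.48, 4.77 and 4.63 in knockout arrays and 5.09, 5.20 and 5.33 in control arrays. The groups did not overlap, and it fell by 0.58 on the log2 scale (limma adjusted p = 0.0128). The other 3 KDM4 genes had estimates of 0.12 to 0.29 and did not pass. Kdm7a, which acts on repressive H3K9 and H3K27 methylation (Entrez gene 338523), read 6.40, 6.41 and 6.39 in knockout arrays and 6.00, 6.01 and 5.96 in control arrays. The arrays of a group were nearly equal, and the rise was 1.33-fold (95% interval 1.18 to 1.5, limma adjusted p = 0.0126). It passed in 5 of the 6 leave-one-out fits and missed without control replicate 3 (limma adjusted p = 0.051).

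Kdm5d, the Y-linked H3K4 demethylase (Entrez gene 20592), read 4.67, 5.10 and 5.07 in knockout arrays and 4.29, 4.43 and 4.23 in control arrays. The groups did not overlap, although knockout replicate 1 stood nearer to the control arrays, and the gene rose 1.55-fold (limma adjusted p = 0.02). It passed in 2 of the 6 leave-one-out fits. Its X-linked counterpart Kdm5c differed by 0.11 (limma adjusted p = 0.537), and whether these close relatives share probes was not tested. Kdm1a, the LSD1 enzyme of corepressor complexes, averaged 7.59 ± 0.025 in the knockout and 7.25 ± 0.14 in the control and did not pass (change 0.33, limma adjusted p = 0.0635). Kdm2a, which binds unmethylated CG-rich DNA, differed by 0.22 (limma adjusted p = 0.182), and Kdm3b, an H3K9 demethylase, by 0.25 (limma adjusted p = 0.127). The remaining demethylases that did not pass had estimates of 0.013 to 0.29. Of 11 JmjC proteins with other names 1 changed (9.09%, against 9.75% of all rows and 18.1% of those above the median level). It was Uty, the Y-linked relative of Kdm6a, with 6.66 ± 0.18 in the knockout and 5.82 ± 0.26 in the control (limma adjusted p = 0.0113).

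**Figure D2:**
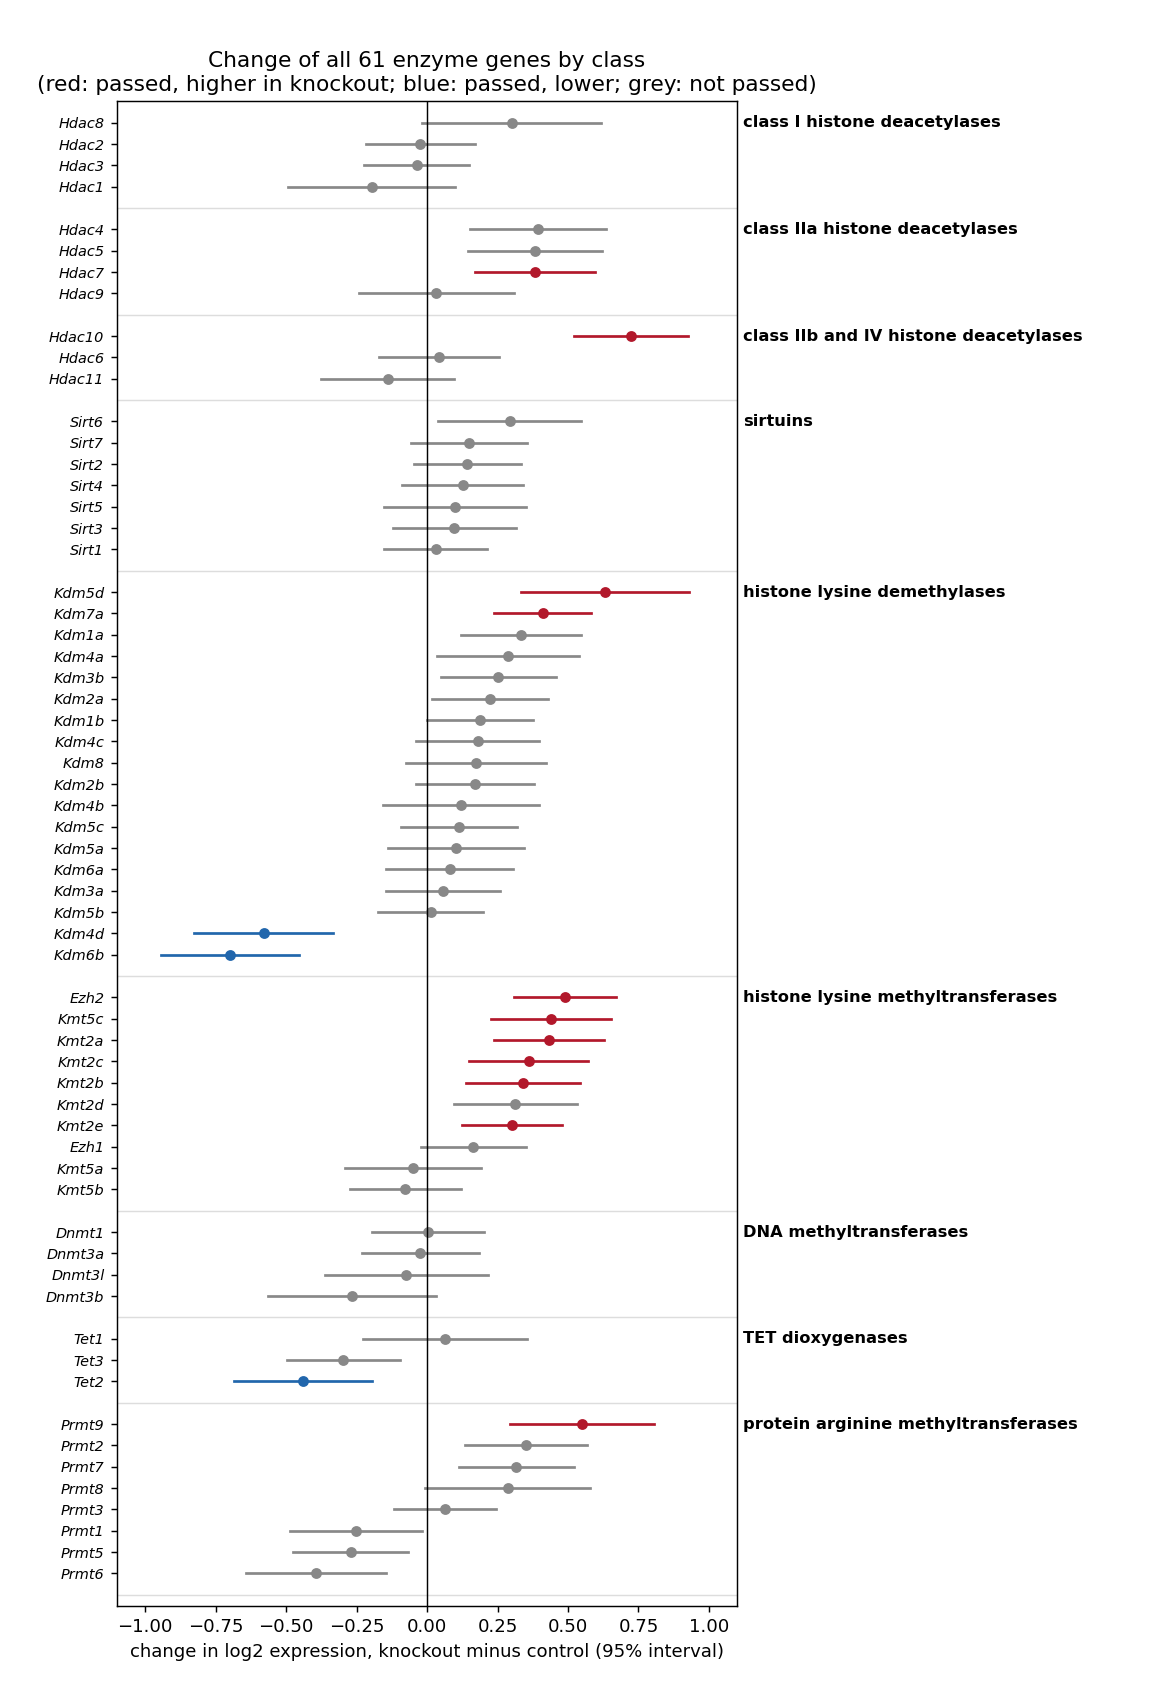
Change in log2 expression, knockout minus control, with 95% intervals for all 61 enzyme genes, grouped by class. Red and blue mark the 11 genes that passed as higher and the 3 that passed as lower in the knockout. The KMT2 genes lie together at 0.30 to 0.43, and the DNA methyltransferases at -0.27 to 0.0033.

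Among the enzymes of DNA methylation, none of the 4 DNA methyltransferases passed in limma, and 0 had an unadjusted p under 0.05. Over all rows 9.75% passed and 22.9% had such an unadjusted p. Above the median level these shares were 18.1% and 37.2%, so 0 of 4 says little about the class. Dnmt1, which copies methylation after replication, read 8.61, 8.76 and 8.81 in knockout arrays and 8.71, 8.71 and 8.75 in control arrays. The groups overlapped, and the 95% interval of the fold was 0.874 to 1.15. Dnmt3a, a de novo enzyme, read 7.08, 6.94 and 6.91 in the knockout and 7.04, 6.90 and 7.06 in the control, and the interval of its fold was 0.852 to 1.14. Dnmt3b, the other de novo enzyme, averaged 3.18 ± 0.20 and 3.45 ± 0.16 in knockout and control. It and the catalytically inactive cofactor Dnmt3l lie under the median row, where array values can understate a change. None of 15 readers and repair factors of DNA methylation passed in limma, and their median was 0.04. In 4 the unadjusted p was under 0.05 (26.7%, against 22.9% of all rows and 37.2% of rows above the median level). Of the 15, 13 lie above that level.

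Tet2, which oxidises 5-methylcytosine and is the TET enzyme best known in blood cells (Entrez gene 214133), read 7.61, 7.84 and 7.86 in knockout arrays and 8.31, 8.25 and 8.07 in control arrays. All knockout arrays lay below all control arrays, and Tet2 fell by 0.44 on the log2 scale (limma adjusted p = 0.0376). It passed in 1 of the 6 leave-one-out fits. Tet3, with the same activity, read 7.26, 7.23 and 7.27 in the knockout and 7.68, 7.48 and 7.49 in the control. Its groups did not overlap either, but it did not pass (change -0.30, limma adjusted p = 0.0766). Tet1, at 2.41 and 2.35 in knockout and control, lay under the median row and was not called.

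Among the histone deacetylases, none of the 4 class I enzymes passed in limma, and 0 had an unadjusted p under 0.05. All 4 lie above the median level, where 18.1% of rows passed and 37.2% had such an unadjusted p. Over all rows the shares were 9.75% and 22.9%, so 0 of 4 says little about the class. Hdac1, a catalytic subunit of large corepressor complexes, read 8.32, 8.41 and 8.24 in knockout arrays and 8.24, 8.62 and 8.70 in control arrays (change -0.20, limma adjusted p = 0.436). Hdac3, the enzyme of the NCoR and SMRT complexes, read 8.23, 8.25 and 8.28 in the knockout and 8.22, 8.37 and 8.28 in the control, with a 95% interval of the fold of 0.857 to 1.11. Both pairs of groups overlapped. Hdac2 differed by -0.023. Hdac8, a class I enzyme that acts outside such complexes, read 5.26, 5.73 and 5.73 in the knockout and 5.27, 5.37 and 5.18 in the control (change 0.30, limma adjusted p = 0.246). It passed in 1 alternative, the fit without knockout replicate 1 (limma adjusted p = 0.0398).

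Class IIa enzymes have weak catalytic activity and shuttle between nucleus and cytoplasm as repressors of MEF2 factors. Hdac7, the class member best known in developing T cells (Entrez gene 56233), read 5.60, 5.70 and 5.64 in knockout arrays and 5.41, 5.19 and 5.19 in control arrays. The groups did not overlap, and it rose 1.30-fold (limma adjusted p = 0.0379). Hdac4 read 7.46, 7.80 and 7.59 in the knockout and 7.29, 7.18 and 7.20 in the control (change 0.39, limma adjusted p = 0.0534). Hdac5 read 6.09, 6.24 and 6.44 in the knockout and 5.85, 5.88 and 5.89 in the control (change 0.38, limma adjusted p = 0.0557). Hdac4 and Hdac5 thus had no overlap between groups and changes close to that of Hdac7, but missed the threshold. Hdac9 differed by 0.033. The class median was 0.38, and Hdac7 passed in 1 of the 6 leave-one-out fits.

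Hdac10, a class IIb enzyme that deacetylates polyamines (Entrez gene 170787), had the smallest adjusted p of all 61 enzymes. It read 6.37, 6.38 and 6.49 in knockout arrays and 5.80, 5.61 and 5.66 in control arrays. Every knockout array exceeded every control array, and the rise was 1.65-fold (95% interval 1.43 to 1.9, limma adjusted p = 0.00226). Hdac6, the class IIb deacetylase of tubulin, differed by 0.043, and the class IV enzyme gene Hdac11 by -0.14, neither passing. The 20 partners of deacetylase complexes had a median of -0.022. Of these 2 rose and 1 fell (15%, against 9.75% of all rows and 18.1% of those above the median level). They were Rcor3, a CoREST scaffold (0.70), and the NuRD remodellers Chd3 (0.44) and Chd4 (-0.36). Against 9.75% of all rows and 18.1% of those above the median level, 42.9% of 14 histone acetyltransferases, the opposing enzymes, passed. Of them 5 rose and 1 fell (median 0.22). Led by adjusted p these were the coactivator Ncoa3 (0.67), Kat2b (0.59), Kat6b (0.81) and Ncoa1 (0.44), and Hat1, which acetylates newly made histone H4, fell by 0.33 on the log2 scale (limma adjusted p = 0.0488).

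The sirtuins, deacylases that consume NAD, gave no call in limma. Of 7, 1 had an unadjusted p under 0.05 (14.3%, against 22.9% of all rows and 37.2% of rows above the median level). Their estimates were all above 0, between 0.03 and 0.29, also after quantile normalisation again and after centring, with a median of 0.13. Sirt2, a cytoplasmic tubulin deacetylase, averaged 10.23 ± 0.044 in the knockout and 10.09 ± 0.08 in the control (limma adjusted p = 0.37). Sirt6, a chromatin enzyme of DNA repair and glycolytic genes, averaged 6.73 ± 0.19 in the knockout and 6.44 ± 0.062 in the control (limma adjusted p = 0.155). Among 20 genes that supply methyl groups, NAD or 2-oxoglutarate, the median change was 0. Of these 5 fell and 2 rose (35%, against 9.75% of all rows and 18.1% of those above the median level). The one-carbon enzymes Shmt1 (-0.66) and Mthfd2 (-0.39) fell, as did Nampt, which makes NAD (-0.68). Idh1, a source of 2-oxoglutarate, rose by 1.04 on the log2 scale.

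Protein arginine methyltransferases had 1 call among 8 members, a rise (12.5% called, against 9.75% of all rows and 18.1% of those above the median level). Prmt9, which methylates a splicing factor (Entrez gene 102182), read 5.31, 5.26 and 5.48 in knockout arrays and 4.61, 4.86 and 4.93 in control arrays. The groups did not overlap, and it rose 1.46-fold (95% interval 1.23 to 1.75, limma adjusted p = 0.0187), passing in 4 of the 6 leave-one-out fits. Prmt2 (change 0.35, limma adjusted p = 0.0553) and Prmt7 (change 0.32, limma adjusted p = 0.0647) did not pass. Prmt5, the main enzyme of symmetric arginine methylation, read 8.97, 8.99 and 8.94 in the knockout and 9.37, 9.19 and 9.15 in the control (limma adjusted p = 0.107). Prmt6, which marks histone H3 arginine, read 4.75, 4.90 and 4.95 in the knockout and 5.30, 5.40 and 5.08 in the control (change -0.39, limma adjusted p = 0.0601). In 7 of the 8 genes the groups did not overlap, 4 with higher and 3 with lower knockout arrays, Prmt3 being the exception. Groups did not overlap in 27.5% of all rows and in 43.8% of rows above the median level. Prmt8, at 2.50 and 2.21 in knockout and control, lay under the median row.

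**Figure D3:**
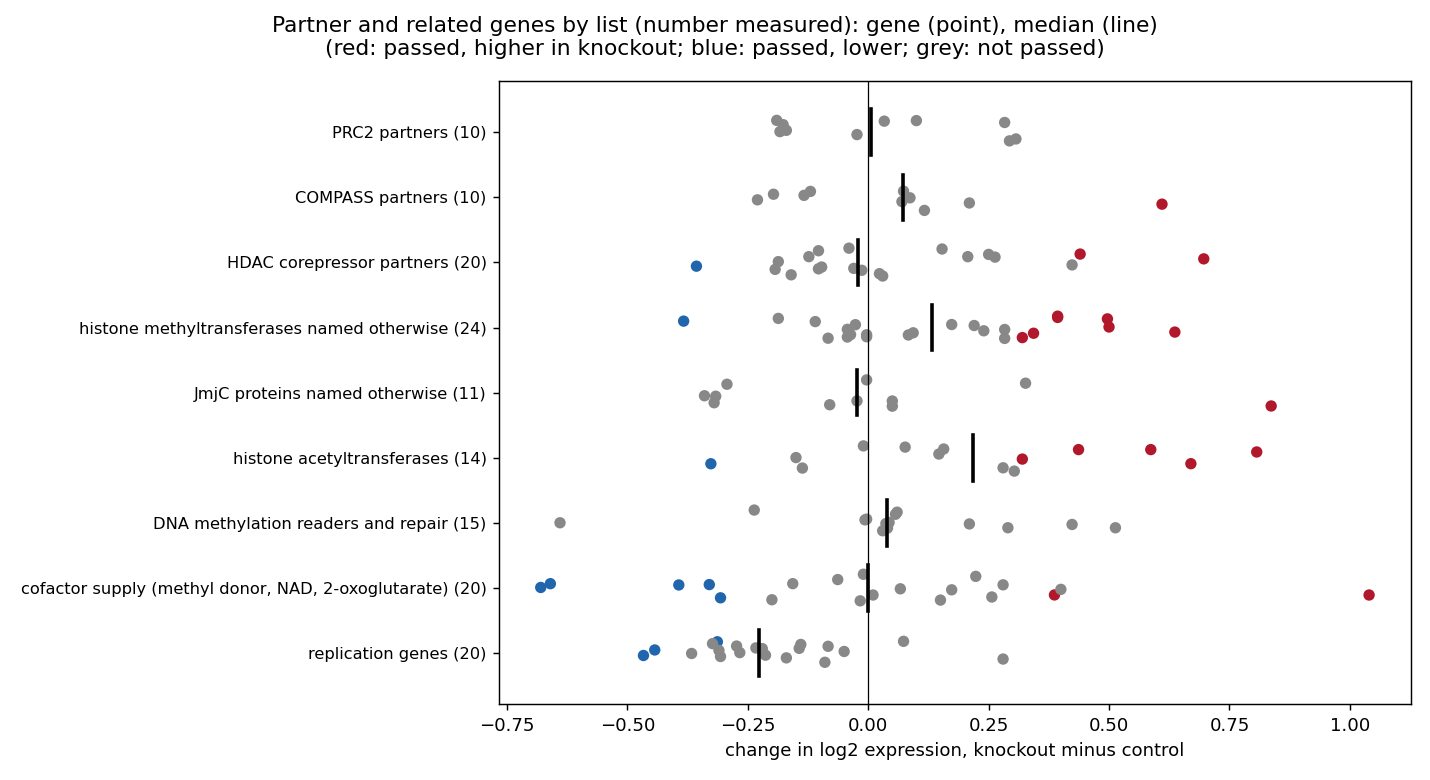
Change in log2 expression, knockout minus control, of genes in 9 lists of partners and related enzymes, one point per gene with list medians as lines and the number measured in brackets. Red and blue mark genes that passed as higher and lower in the knockout. Acetyltransferases have the highest list median (0.22) and replication genes the lowest (-0.23).

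For spread between replicates, these enzymes had a median residual SD of 0.0976 on the log2 scale against 0.131 over all rows. Above the median level the gap was smaller, with 0.0962 for the enzymes there against 0.113 for all rows there. Beside the 14 that passed, 11 enzymes passed in at least 1 alternative, namely Hdac4, Hdac5, Hdac8, Kdm1a, Kdm3b, Kmt2d, Prmt2, Prmt5, Prmt6, Prmt7 and Tet3. The other 36 passed in none. With a trended and robust prior 18 enzymes were higher and 6 lower, where 13.9% of all rows passed, and restricting the fit to rows above the median level gave the same counts, where 27.9% of those rows passed.

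**Figure D4:**
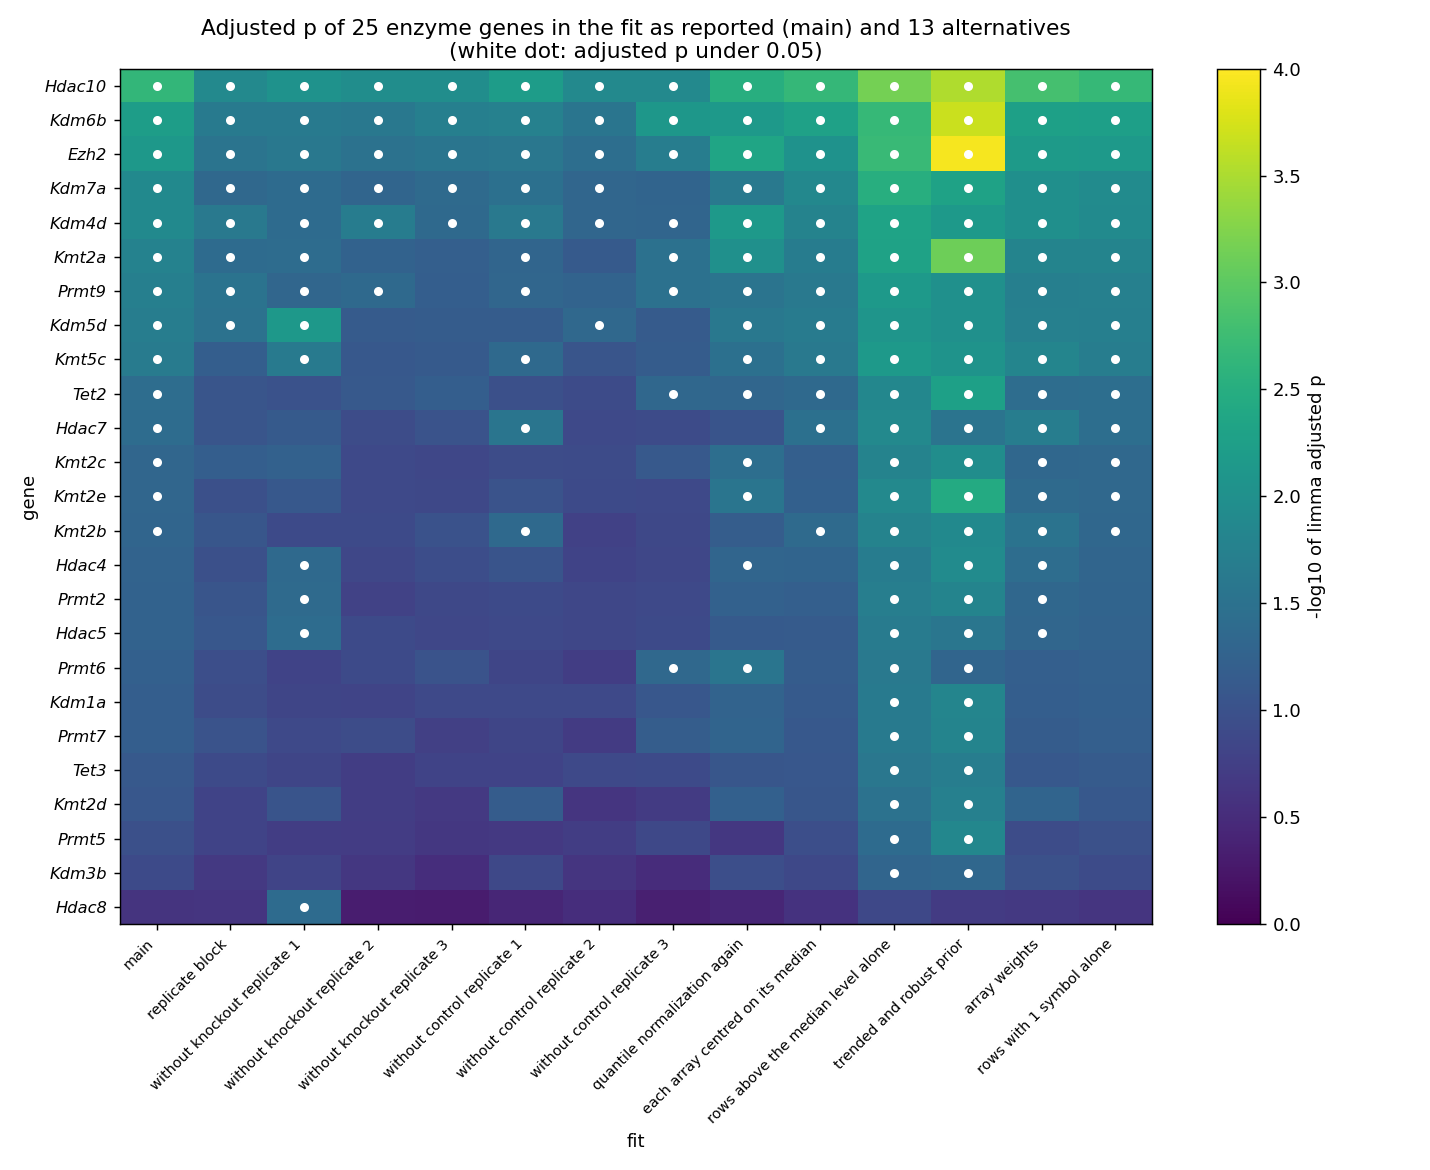
Limma adjusted p, as -log10, of the 25 enzyme genes that passed in at least 1 fit (down the page, smallest adjusted p first) in the fit as reported and 13 alternatives (across). White dots mark an adjusted p under 0.05. Hdac10, Kdm6b, Ezh2 and Kdm4d have a dot in every column.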

How the data were processed

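Total RNA of 6 samples was labelled with biotin and hybridised to arrays, per the labels' protocols. The deposited values are log2 expression, a scale read from the values, and RMA and limma 3.14.4 were used in their making in a role not given, per the submitters' processing notes. RMA normalises arrays to nearly the same distribution and compresses differences near background, and the values carry no detection calls. Rows were named through Entrez numbers (23185 of 25206 rows) and RefSeq. The values were tested as deposited with limma 3.58.1 in R 4.3.3, knockout minus control, with two-sided moderated tests, Benjamini-Hochberg adjustment over all 25206 rows and a threshold of 0.05. Tested on simulated data of 25206 rows, it found 0% of 67 rows shifted by 0.3 (log2), 20.9% of 67 rows shifted by 0.5, and 72.7% of 66 rows shifted by 1. Of its 64 calls 2 were false. No other simulated rows were shifted, whereas 2457 rows passed in the data. The adjustment depends on how many rows change, so these shares do not carry over to the data. Named were all enzymes past the threshold, those whose call changed in an alternative, 7 fixed enzymes, and in each class the one with the highest level and the one with the largest change among those not passing. Up to 4 genes past the threshold were named from each list, and other genes named beside these (paralogs, complex subunits, single falls) were chosen after their values were seen. The members and lists were chosen with earlier results of these data known. Of 201 list entries 185 had a row. Alternatives left out each array, added the replicate number as a block, or changed the normalisation, prior, weights or rows tested.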

Additional observations from a re-analysis of the deposited data

How the results depend on the processing

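Rises among the 61 enzymes numbered 11 as reported and 3 to 11 when 1 array was left out, 6 with the replicate block, and 18 both with rows above the median level alone and with a trended and robust prior. Falls numbered 3 as reported, 2 to 4 with 1 array left out, 2 with the replicate block, and 6 under each of the same pair of settings. Kmt5c was among the calls lost with the replicate block (limma adjusted p = 0.0629). Whether the replicate numbers pair the samples is not known. Same-numbered arrays deviated from their group means with correlations of 0.0249, 0.00669 and 0.0539, and differently numbered arrays with -0.0651 to 0.0435. By these values over all rows no shared effect of a replicate number was detected, which does not show that there is none. Quantile normalisation again gave a median change of 0.0911 for all members, 0.109 for demethylases and 0.0556 for sirtuins. It turned the median of class IIb and IV deacetylases, 0.0433 as reported, to -0.0206, and leaving out 1 array moved it between -0.0133 and 0.107. With rows above the median level alone, where Hdac11 and Prmt8 drop out, that class had 0.383 and arginine methyltransferases 0.0633. The changes of the genes left in these classes were the same as reported. Leaving out 1 array moved the median over all members between 0.125 and 0.165, demethylases between 0.133 and 0.187, arginine methyltransferases between 0.0933 and 0.183, and sirtuins between 0.0783 and 0.2. Over all rows 2457 passed as reported and 1307 to 1837 with 1 array left out. The causes of the other shifts were not tested. No call of an enzyme changed direction in any of the 13 alternatives. The number of arrays and the absence of detection calls limit what can be seen for the 5 enzymes whose means lie under the median row in both groups.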

Other observations

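Both Y-linked demethylase family genes on the array were higher in the knockout, Kdm5d with a change of 0.63 and Uty with 0.84. Of 13 rows on chromosome Y, 4 lay above the median level. Besides Kdm5d and Uty these were Eif2s3y, a translation factor gene that averaged 6.92 ± 0.14 in the knockout and 6.87 ± 0.21 in the control (SD, n = 3; limma adjusted p = 0.864), and the pseudogene Gapdh-ps15, which fell by 0.59 on the log2 scale (limma adjusted p = 0.0131). These Y-linked rows were singled out after their values were seen.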
